A study of Mus musculus with 4 samples.

Results

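The genes of the LIF-STAT3 pathway were followed in chromatin-associated RNA of mouse embryonic stem cells (mESCs) after ZBTB21 depletion. The set holds 9 genes, Lif, Lifr, Il6st, Jak1, Jak2, Stat3, Socs3, Pim1 and Pim3, taken by symbol through the GENCODE annotation of mm10 from a table of 36918 gene identifiers. ChAR-seq sequences the RNA that is extracted with the chromatin pellet, so that nascent transcripts are enriched. Each group had 2 libraries. In the degron group, the ZBTB21-degron mESCs had received 1 μg/ml doxycycline for 24 h and then 500 μM indole acetic acid (IAA), an auxin that triggers loss of the tagged protein, for 6 h. The other group was the same tagged line left untreated, and whether it was given doxycycline is not stated, so that loss of ZBTB21, IAA and doxycycline cannot be told apart. Cells of both groups carried an auxin-inducible degron and GFP at the C-terminus of both endogenous Zbtb21 alleles and came from a line that expresses OsTIR1, the plant F-box protein that recognises the degron. How many clones stand behind the libraries is not given.

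Per the labels, the medium held 1000 U/ml mouse LIF, 3 μM CHIR99021, an inhibitor of GSK3, and 0.5 μM PD0325901, an inhibitor of MEK, so that all libraries come from cells with LIF supplied from outside. LIF is a cytokine of the IL6 family. It binds LIFR, which pairs with the shared receptor chain IL6ST, and the JAK kinases bound to these chains phosphorylate STAT3, which enters the nucleus and activates its targets. In mESCs this route is known for holding cells in the naive state, and SOCS3, itself a product of a STAT3 target gene, binds the receptor complex and shuts the signal down. PIM1 and PIM3 are serine/threonine kinases whose genes respond to STAT3.

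Total counts were 6479842 and 4931027 in the degron libraries and 4761133 and 4262382 in the untreated libraries. All 9 genes passed the filter on low counts in a table of 14361 tested genes, with 84 to 871 counts per library. Levels are given as CPM, counts scaled to a common library total with TMM factors. This places the typical gene near no change (the median over all genes was -0.00075 on the log2 scale), and every change below is relative to it. It is not stated whether the libraries of a group came from separate cultures, so the spread behind each p-value is that between libraries and may be technical. Of 10 ES cell markers, 9 were tested, and their summed level was 3006 and 3023 CPM in the degron libraries, against 2495 and 2498 CPM in the untreated libraries. The 9 fibroblast markers, set beside the results because feeder and stromal cells make LIF, summed to 5.34 and 4.27 CPM in the degron libraries and to 8.28 and 5.96 CPM in the untreated libraries. Thy1 made up most of these sums, at 4.27 and 3.46 CPM in the degron libraries and 7.01 and 5.00 CPM in the untreated libraries. Dcn and S100a4 were at 0 counts in all 4 libraries, but 93.0% of S100a4 lies under another gene of its strand and its level could not be read. Zbtb21 itself had 0 and 0 counts in the degron libraries and 2 and 0 counts in the untreated libraries. As 99.9% of it lies under C2cd2 on the same strand and the degron acts on the protein, this is no check of the labels.

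The sequence of 1 window is shown because it is the single window among these genes that holds the letters of the STAT motif. RefSeq promoter windows of GRCm38.p6, 250 bases before to 50 after each start, were found for all 9 genes (11 windows). They were searched for the letters TTCNNNGAA, a palindrome that reads the same on both strands, with no other motif searched. Among all 32851 windows 8.30% hold it, and among the 11 windows 1 does, that of Socs3. The 250 bases before the Socs3 start lie at chr11:117969367-117969616 on the minus strand, and the motif, in capitals, begins 154 bases before the start.

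Socs3: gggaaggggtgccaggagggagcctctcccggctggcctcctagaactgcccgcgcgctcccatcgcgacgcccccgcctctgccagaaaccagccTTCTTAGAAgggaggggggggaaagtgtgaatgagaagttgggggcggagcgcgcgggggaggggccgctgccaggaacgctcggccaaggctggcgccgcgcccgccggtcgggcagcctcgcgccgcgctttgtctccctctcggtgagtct

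The GENCODE model of Socs3 starts 681 bases further upstream, so this window lies inside the gene as counted. The starts of the Lifr windows lie 38958 and 49928 bases from the GENCODE start of Lifr, which was therefore not searched. A further window of Pim1 has its start 2332 bases from the GENCODE start of that gene. The match is a description of letters and was not tied to binding in these data, and the windows without it say nothing on STAT3 at the other genes.

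The comparison asked whether the RNA of these genes on chromatin differed after ZBTB21 depletion. Lif, Il6st, Pim1 and Pim3 rose, Lifr and Jak1 fell, and Stat3, Jak2 and Socs3 did not pass the test. The called changes were small, between 0.797 and 1.42 on the linear fold scale. In edgeR's quasi-likelihood test, with p-values adjusted over all genes and a threshold of 0.05, 6 of 9 were called, against 40.2% of all tested genes, with 4 higher (20.3% of all genes) and 2 lower (19.8% of all genes). The median log2 fold change of the 9 genes was 0.16. In 8 of the 9 genes the CPM of the groups did not overlap, as in 69% of all tested genes.

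**Figure D1:**
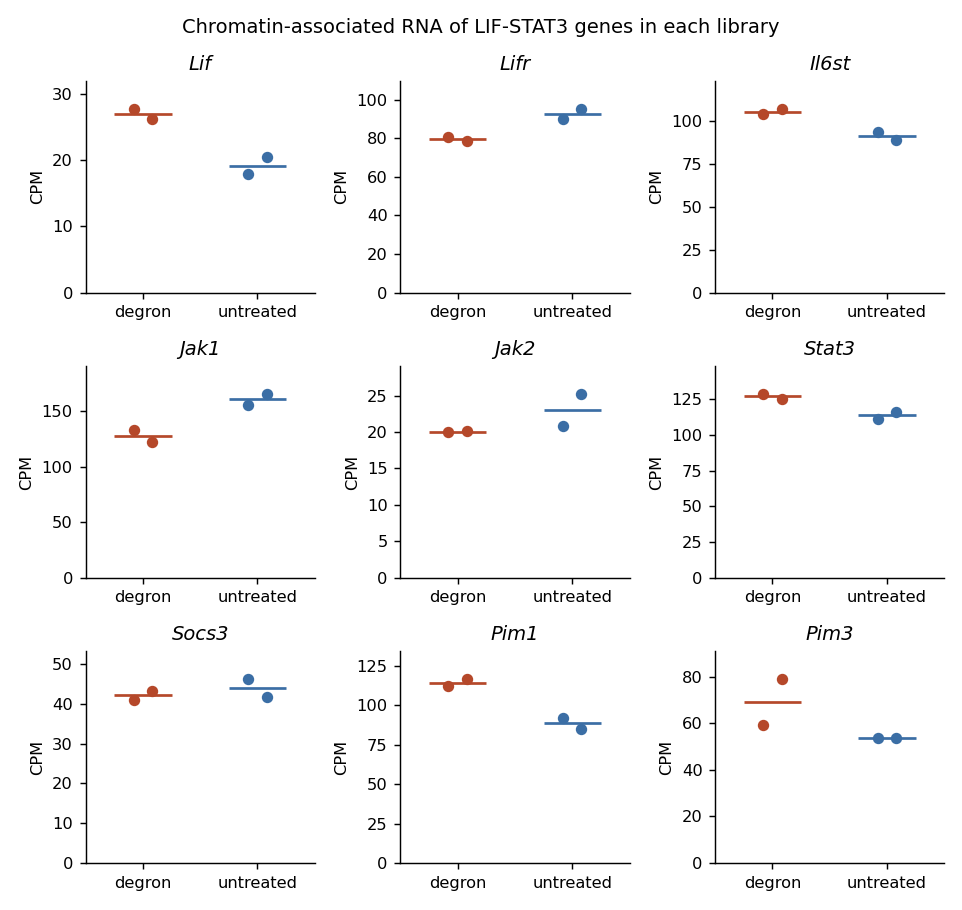
CPM of each of the 9 genes in each library, with the 2 degron libraries on the left and the 2 untreated libraries on the right of every panel; points are libraries, lines are group means, and each axis starts at 0. Lif, Il6st, Stat3, Pim1 and Pim3 sit higher in the degron libraries, Lifr, Jak1 and Jak2 sit lower, and Socs3 overlaps.

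Among all tested genes the direction of change went with gene length, and length is therefore given beside each of the 9 genes. Over 14351 genes, measured in the same 4 libraries and so not independent of each other, length and log2 fold change had a Spearman rho of -0.47. Among 1764 genes of 5 to 10 kb the median log2 fold change was 0.27, and among 1562 genes of 80 to 160 kb it was -0.24. A length-adjusted scaling, which removes this trend in each library, left 4 of the 9 genes called, Lif, Il6st and Stat3 higher and Socs3 lower, so that only Lif and Il6st were called under both scalings. Over all genes the calls were 2921 higher and 2845 lower, against 2601 higher and 1436 lower after length adjustment. Which of the scalings is nearer to the cells was not tested, nor was the part of length in the changes of the 9 genes.

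**Figure D2:**
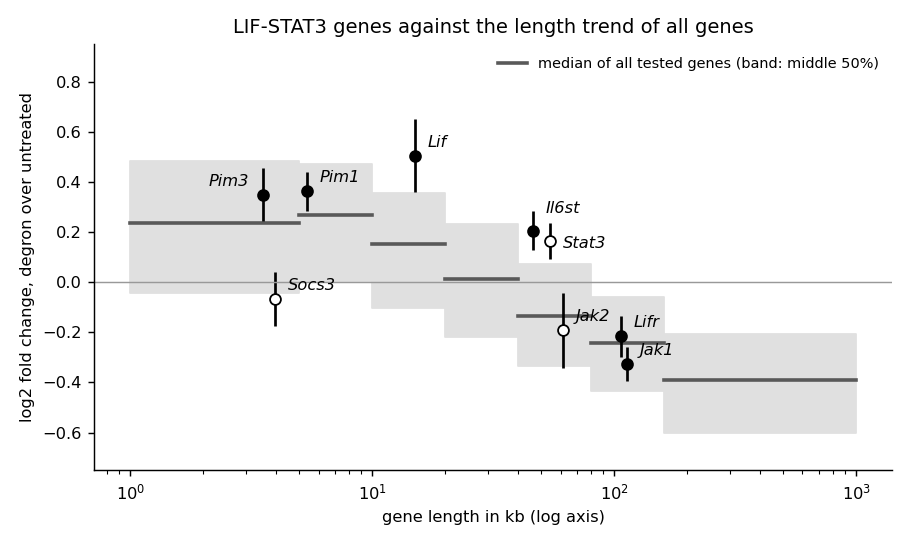
Log2 fold change (degron over untreated, ± SE) against gene length in kb on a log axis; filled points passed the edgeR test and open points did not, grey lines are the medians of all tested genes in 7 length classes and the bands hold their middle 50%. Pim1, Pim3, Lifr, Jak1 and Jak2 lie within the band of their length class, Lif, Il6st and Stat3 lie above it and Socs3 lies below it.

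Lif (ENSMUSG00000034394) encodes the ligand. The gene spans 4257557 to 4272514 on the plus strand of chromosome 11 (mm10), has a length of 14958 bp with up to 4 exons in a transcript, and is overlapped by no other gene. It had 182 and 129 counts in the degron libraries and 84 and 86 counts in the untreated libraries. The level was 27.8 and 26.2 CPM in the degron libraries, against 17.8 and 20.5 CPM in the untreated libraries. Every degron library lay above every untreated one. Lif rose by 0.50 ± 0.15 on the log2 scale (SE, edgeR adjusted p = 0.00494), the largest change among the 9 genes. After length adjustment it was 0.41 (adjusted p = 0.0306). Without untreated replicate 1 the change was 0.41 and the call was lost (adjusted p = 0.0838), as it was with DESeq2's Wald test (0.50, adjusted p = 0.125).

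Of the receptor chains, Il6st rose and Lifr fell. Il6st (ENSMUSG00000021756), the signalling chain shared by the IL6 family, spans 112464070 to 112510086 on the plus strand of chromosome 13 (46.0 kb, up to 18 exons). It was measured at 104 and 107 CPM in the degron libraries and at 93.9 and 89.1 CPM in the untreated libraries. Its log2 fold change was 0.21 ± 0.08 (edgeR adjusted p = 0.0314), and 0.31 after length adjustment (adjusted p = 0.00184). Lifr (ENSMUSG00000054263), the chain that binds LIF, spans 7090614 to 7197489 on the plus strand of chromosome 15 (107 kb, up to 20 exons). It was at 80.4 and 78.7 CPM in the degron libraries, against 90.1 and 95.3 CPM in the untreated libraries. Lifr fell by 0.22 ± 0.08 on the log2 scale (adjusted p = 0.0295). After length adjustment its log2 fold change turned to 0.043 (adjusted p = 0.735).

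The ratio of the chains within a library needs no scaling between libraries, although Lifr is the longer gene. Il6st had 1.29 and 1.36 times the counts of Lifr in the degron libraries, and 1.04 and 0.935 times in the untreated libraries. The ratios of the groups did not overlap, which follows from Il6st lying higher and Lifr lower in every degron library. The ratio is thus no separate support for the calls. Both calls were thin, however. Leaving out degron replicate 1, degron replicate 2 or untreated replicate 2 ended the call of Il6st (adjusted p = 0.0640, 0.128 and 0.156) and of Lifr (adjusted p = 0.100, 0.130 and 0.212), with log2 fold changes from 0.18 to 0.24 for Il6st and from -0.23 to -0.17 for Lifr. DESeq2's Wald test called neither (adjusted p = 0.221 for Il6st and 0.233 for Lifr).

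Jak1, the kinase with the main role in signalling through IL6ST, had the smallest adjusted p of the 9 genes. Jak1 (ENSMUSG00000028530) spans 101152367 to 101265282 on the minus strand of chromosome 4 (113 kb, up to 25 exons). Its level was 133 and 122 CPM in the degron libraries, against 156 and 166 CPM in the untreated libraries. Jak1 fell by 0.33 ± 0.07 on the log2 scale (edgeR adjusted p = 0.000176), and this call held when any 1 library was left out (-0.39 to -0.27) and with DESeq2. It was lost after length adjustment (-0.059, adjusted p = 0.569). Jak1 is the longest of the 9 genes.

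Jak2 (ENSMUSG00000024789), the related kinase, spans 29251828 to 29313080 on the plus strand of chromosome 19 (61.3 kb, up to 25 exons). It was at 20.0 and 20.1 CPM in the degron libraries and at 20.8 and 25.3 CPM in the untreated libraries. The log2 fold change of -0.19 ± 0.15 did not pass (edgeR adjusted p = 0.321), and the wider error went with 98 to 131 counts per library. Jak1 had 6.65 and 6.06 times the counts of Jak2 in the degron libraries, and 7.48 and 6.56 times in the untreated libraries, which overlapped. Whether the changes of these kinase genes differ was not tested.

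Stat3 (ENSMUSG00000004040), which encodes the transcription factor of the pathway, spans 100885098 to 100939540 on the minus strand of chromosome 11 (54.4 kb, up to 24 exons), and overlaps Stat5a on the other strand over 0.132% of its length. It was at 129 and 125 CPM in the degron libraries, against 111 and 116 CPM in the untreated libraries, with no overlap. Its log2 fold change of 0.16 ± 0.07 missed the threshold (edgeR adjusted p = 0.0674). It passed with scaling to total counts (0.19, adjusted p = 0.0290), with no filter on low counts (0.20, adjusted p = 0.0278) and after length adjustment (0.30, adjusted p = 0.000987). Leaving out any 1 library gave 0.14 to 0.20, with no call. The counts of Stat3 were 0.969 and 1.03 times those of Jak1 in the degron libraries and 0.715 and 0.701 times in the untreated libraries. These ratios did not overlap, which follows from Stat3 lying higher and Jak1 lower in every degron library. Jak1 is the longer gene of the pair.

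**Figure D3:**
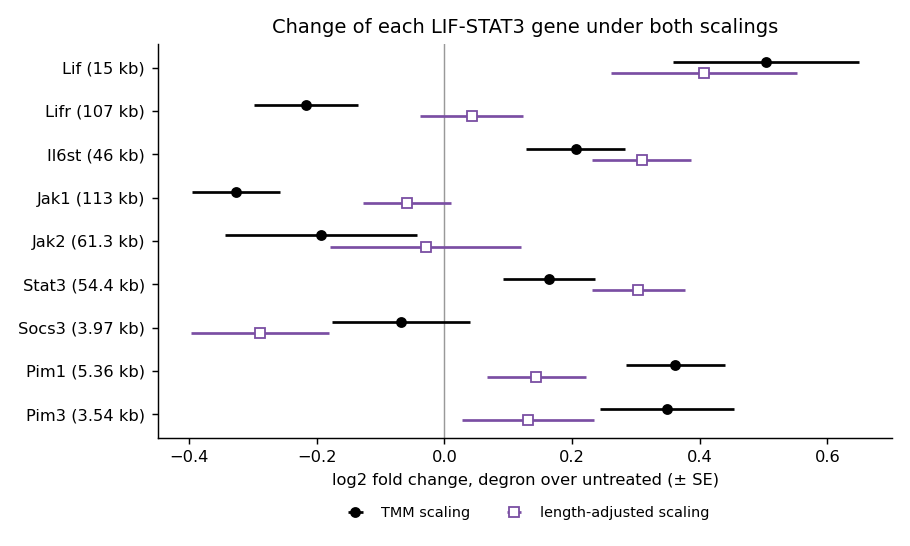
Log2 fold change of degron over untreated (± SE) for each gene, with gene length in brackets; filled circles use TMM scaling and open squares use the length-adjusted scaling. Long genes move to the right with the adjustment and short genes move to the left, with Lifr at -0.22 against 0.043 and Pim1 at 0.36 against 0.14.

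The target genes that the list holds did not move as 1 block. Pim1 and Pim3 rose, and Socs3 was not called. Pim1 (ENSMUSG00000024014) spans 29490753 to 29496112 on the plus strand of chromosome 17 (5.36 kb, up to 6 exons). It was at 112 and 117 CPM in the degron libraries and at 92.2 and 85.3 CPM in the untreated libraries. Pim1 rose by 0.36 ± 0.08 on the log2 scale (edgeR adjusted p = 0.000219), kept its call when any 1 library was left out (0.32 to 0.43) and with DESeq2, and lost it after length adjustment (0.14, adjusted p = 0.167). The gene is overlapped over 21.9% of its length by Gm26885 on the other strand, which had 189 and 124 counts in the degron libraries and 122 and 99 counts in the untreated libraries. The strand setting of the counting is not stated, so reads from both cannot be told apart with certainty.

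Pim3 (ENSMUSG00000035828), the paralog, spans 88862186 to 88865726 on the plus strand of chromosome 15 (3.54 kb, up to 6 exons). It was at 59.2 and 79.1 CPM in the degron libraries and at 53.5 and 53.6 CPM in the untreated libraries. Here the degron libraries lay far apart while the untreated ones were nearly equal. Pim3 rose by 0.35 ± 0.11 on the log2 scale (edgeR adjusted p = 0.00692), and the call rested on degron replicate 2, without which the log2 fold change was 0.15 (adjusted p = 0.357), against 0.57 without degron replicate 1. It was also lost after length adjustment (0.13, adjusted p = 0.370) and with DESeq2 (adjusted p = 0.102). The counts of Pim3 were 0.529 and 0.678 times those of Pim1 in the degron libraries and 0.581 and 0.628 times in the untreated libraries.

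Socs3 (ENSMUSG00000053113), the feedback inhibitor whose promoter window is printed above, spans 117966079 to 117970047 on the minus strand of chromosome 11 (3.97 kb, up to 2 exons). It was at 41.0 and 43.3 CPM in the degron libraries, against 46.3 and 41.7 CPM in the untreated libraries. It is the only one of the 9 genes whose groups overlapped. The log2 fold change was -0.068 ± 0.11 (edgeR adjusted p = 0.655), and it was 0.022 without untreated replicate 1 (adjusted p = 0.926). Genes of up to 5 kb had a median log2 fold change of 0.24, and after length adjustment Socs3 was at -0.29 and called lower (adjusted p = 0.0388). Pim1 had 2.73 and 2.69 times the counts of Socs3 in the degron libraries, and 1.99 and 2.05 times in the untreated libraries. These ratios, from genes of similar length, did not overlap and need no scaling between libraries. The pair was chosen after the values were seen, and how many other pairs separate in this way was not counted. The ratio uses the same counts and is no separate support for the call of Pim1.

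Levels were compared between genes as CPM per kb of the counted gene body, which is the gene less its first 300 bp. In the degron libraries Pim1 (22.6 ± 0.666 CPM per kb, SD, n = 2) and Pim3 (21.3 ± 4.35) stood highest and overlapped, followed by Socs3 (11.5 ± 0.440). Stat3 (2.35 ± 0.0453) and Il6st (2.31 ± 0.0517) overlapped each other, and Lif (1.84 ± 0.0737), Jak1 (1.13 ± 0.0681), Lifr (0.747 ± 0.0112) and Jak2 (0.329 ± 0.00174) followed with no overlap between neighbours. In the untreated libraries the order was the same but for Jak1 (1.43 ± 0.0622) and Lif (1.31 ± 0.128), which stood in the other order and overlapped, while no other neighbours did. Per kb, the kinase genes Pim1 and Pim3 thus lay over the receptors and the JAK genes in all 4 libraries. Exons make up 62.7% of Pim1, 68.5% of Pim3 and 72.8% of Socs3, against 6.40% of Jak1 and 10.1% of Lifr, and exon and intron reads were not separated in these counts. Lifr was divided by the length of its GENCODE model, whose start lies 38958 and 49928 bases before the RefSeq starts. The place of Lifr in this order is therefore uncertain.

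**Figure D4:**
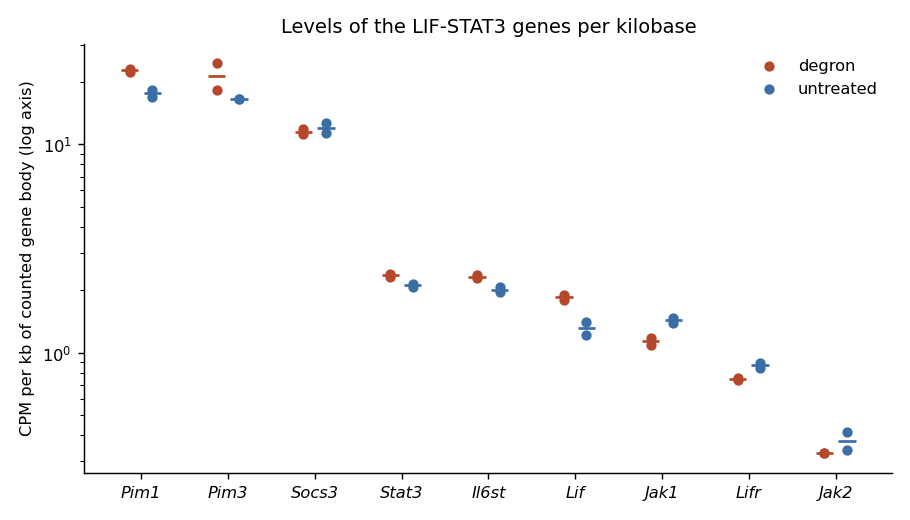
CPM per kb of counted gene body for the 9 genes on a log axis, ordered by the degron mean, with degron libraries on the left and untreated libraries on the right of each gene; points are libraries and lines are means. Pim1, Pim3 and Socs3 lie above 10 and the other genes below 3 CPM per kb.

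Over the 4 libraries, the genes with the most similar profile were found by Euclidean distance of centred log2(CPM + 1) among 8303 genes with a mean of at least 100 counts. For Jak1, with the smallest adjusted p, these were Gstcd, Zfp280c and Ubxn7 (distance 0.010, 0.015 and 0.023), with log2 fold changes of -0.32, -0.34 and -0.31. For Socs3, with the largest adjusted p, they included Tmem199 and Cep170b (0.021 and 0.030), with log2 fold changes of -0.048 and -0.040.

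The rest of the pathway was then examined in 6 lists of 100 genes, of which 87 were tested. Of these 22 rose and 22 fell (50.6% called, against 40.2% of all genes), and the median log2 fold change was -0.027. With DESeq2's Wald test 21 were called, 11 higher and 10 lower, against 2818 of all 14361 genes (1421 higher and 1397 lower). After length adjustment 18 were higher and 15 lower, against 2601 higher and 1436 lower of all 14361 genes.

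Among the 9 genes of the IL6 family ligand list, 4 were tested and 1 was called (25%, against 40.2% of all genes). Osm, which encodes oncostatin M, a ligand that also signals through IL6ST, rose. It had 9.03 ± 2.19 CPM in the degron libraries and 4.28 ± 0.347 CPM in the untreated libraries (SD, n = 2), a log2 fold change of 1.05 ± 0.28 (edgeR adjusted p = 0.00231), which DESeq2 did not call (adjusted p = 0.0779). Ctf1 (0.38) and Ctf2 (-0.50) were not called, and Ctf2 was at 7.88 ± 3.96 CPM in the degron libraries and 11.6 ± 0.961 CPM in the untreated libraries. Ctf2 was called lower after length adjustment (-0.61, adjusted p = 0.0468) and without degron replicate 1 (-1.19, adjusted p = 0.000736). Il6 had 0 and 0 counts in the degron libraries and 1 and 1 in the untreated libraries. Il11 had 10 and 5 counts in the degron libraries and 2 and 2 in the untreated libraries, below the filter. Cntf and Clcf1 were listed at 0, but 100% of Cntf and 98.7% of Clcf1 lie under another gene of their strand, and their level could not be read.

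Of 10 further JAK-linked receptors tested, 2 rose and 3 fell (50% called, against 40.2% of all genes). Il6ra, which binds IL6, fell by 0.52 ± 0.12 on the log2 scale (26.2 ± 0.106 CPM in the degron libraries and 37.4 ± 0.974 in the untreated libraries, edgeR adjusted p = 0.000789). Cntfr, the receptor of ciliary neurotrophic factor, fell by 0.93 ± 0.23, and Ghr, the growth hormone receptor, a gene of 266 kb at 2.31 ± 0.396 CPM in the degron libraries and 5.53 ± 0.607 CPM in the untreated libraries, fell by 1.22 ± 0.34. Csf3r rose by 0.57 ± 0.16 and Ifnar1 by 0.27 ± 0.10. Of these 5 genes DESeq2's Wald test called Il6ra alone (adjusted p = 0.0491), and not Cntfr (0.0667), Csf3r (0.097), Ghr (0.116) or Ifnar1 (0.244). Ifnar1 and Ghr were not called after length adjustment (adjusted p = 0.0745 and 0.0634), and Ifnar1 also lost its call without degron replicate 1, degron replicate 2 or untreated replicate 1 (adjusted p = 0.0747, 0.0634 and 0.422, the last at 0.14), Ghr without untreated replicate 2 (-1.10, adjusted p = 0.0563). Osmr, the oncostatin M receptor, had 1 and 2 counts in the degron libraries and 0 and 2 in the untreated libraries.

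Of 9 other genes of the JAK, STAT and Pim families, Tyk2 rose, and Stat5b and Stat4 fell (33.3% called, against 40.2% of all genes). Tyk2, the JAK kinase that also binds IL6ST, was at 99.8 ± 6.73 CPM in the degron libraries and 79.7 ± 5.60 CPM in the untreated libraries (log2 fold change 0.33 ± 0.08, edgeR adjusted p = 0.00142), and at 0.33 after length adjustment (adjusted p = 0.00186). Its call was lost without degron replicate 1 (0.26, adjusted p = 0.0538). Over 89.5% of its length, Tyk2 is overlapped by 1700084C06Rik on the other strand, and the strand setting of the counting is not stated. Stat5b fell by 0.65 ± 0.12 (adjusted p = 3.31e-05) and Stat4 by 0.92 ± 0.22, and both calls held after length adjustment (-0.46 and -0.64). Stat4 was at 9.31 and 5.70 CPM in the degron libraries and 13.4 and 16.0 CPM in the untreated libraries. Over 24.9% of its length it lies under Gm28177 on the same strand, which limits the reading of its level. Stat5a (-0.67) and Jak3 (-0.18) were not called, and Jak3 was called lower after length adjustment (-0.28, adjusted p = 0.0431).

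Of 18 negative regulators tested, 5 rose and 6 fell (61.1% called), where 20.3% of all genes were higher and 19.8% lower. After length adjustment 4 of the 18 were higher and 2 lower, against 2601 higher and 1436 lower of all 14361 genes. Pias3, which encodes an inhibitor of STAT3 that binds the factor itself, changed most. It was at 50.7 ± 4.07 CPM in the degron libraries and 25.1 ± 4.47 CPM in the untreated libraries, a log2 fold change of 1.01 ± 0.12 (edgeR adjusted p = 8.31e-09), and at 0.85 after length adjustment (adjusted p = 2.95e-07). Ptpn1, a phosphatase that acts on JAK kinases, rose by 0.41 ± 0.07 (adjusted p = 8.96e-06). Socs2, a relative of Socs3, fell by 0.62 ± 0.12 (adjusted p = 6.93e-05) and kept its value after length adjustment (-0.59). Pias2 (-0.29 ± 0.05) and Socs6 (-0.44 ± 0.12) fell, but were at -0.062 and -0.057 after length adjustment and no longer called (adjusted p = 0.362 and 0.756). Leaving out untreated replicate 1 ended the call of Socs6 as well (-0.35, adjusted p = 0.0675), as did DESeq2 (adjusted p = 0.0897).

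**Figure D5:**
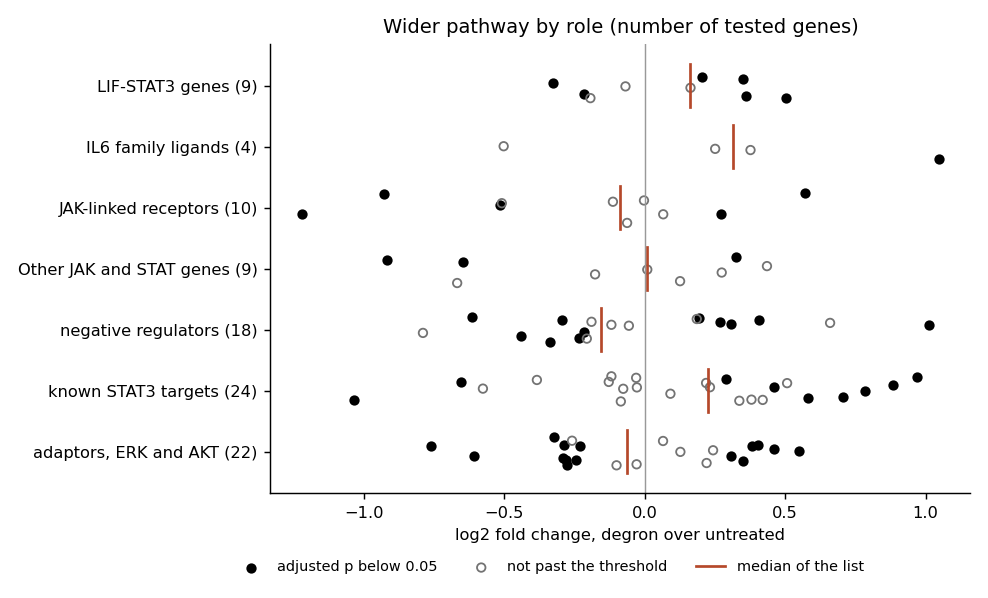
Log2 fold change of degron over untreated for the tested genes of the pathway set and of the 6 wider lists, 1 point per gene; filled points passed the edgeR test, open points did not, and vertical bars are list medians. The list of known STAT3 targets has a median of 0.23 and that of negative regulators a median of -0.15.

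The list of STAT3 targets, drawn up for ES cells or IL6-treated cells, had 24 tested genes. Control by STAT3 in these cells, that of Klf2 included, was not tested. Of the 24 genes, 7 rose and 2 fell (37.5% called, against 40.2% of all genes). Their median log2 fold change was 0.23, and 0.042 after length adjustment. With that adjustment 5 were higher and 4 lower, against 2601 higher and 1436 lower of all 14361 genes. The genes with the clearest rise encode naive pluripotency factors. Tfcp2l1 was at 611 ± 25.5 CPM in the degron libraries and 375 ± 5.22 CPM in the untreated libraries (0.71 ± 0.05, edgeR adjusted p = 1.15e-15), and at 0.86 after length adjustment. Klf4 was at 53.3 ± 6.94 CPM in the degron libraries and 30.5 ± 4.67 CPM in the untreated libraries (0.78 ± 0.12, adjusted p = 9.44e-07). Klf2 rose by 0.97 ± 0.08, and Bcl3, a coactivator of NF-kB subunits, by 0.58 ± 0.10. Genes on the other strand overlap Bcl3 over 30.3% of its length and Gbx2 over 29.3%, and the strand setting is not stated. Gbx2, at 5.65 and 5.09 CPM in the degron libraries and 3.19 and 2.62 CPM in the untreated libraries, rose by 0.88 ± 0.33, and its call was lost without any 1 of the 4 libraries (adjusted p from 0.0539 to 0.170) after length adjustment and with DESeq2 (adjusted p = 0.289). Ccnd1, cyclin D1, rose by 0.46 ± 0.12, which DESeq2 did not call (adjusted p = 0.0619). Klf5 was at -0.085 ± 0.10 with overlapping groups, and Myc, at 7 and 9 counts in the degron libraries and 4 and 4 in the untreated libraries, was not tested. Both genes that fell, Ier3 (-1.03 ± 0.34) and Il4ra (-0.65 ± 0.19), are named after their values were seen.

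Of 9 ES cell markers tested, 5 were higher, 1 was lower and 3 were not called (66.7% called, against 40.2% of all genes). After length adjustment 5 were higher and 2 lower, against 2601 higher and 1436 lower of all 14361 genes. The marker that fell, Tdgf1, named after its values were seen, was at 56.2 and 56.6 CPM in the degron libraries, against 86.7 and 87.2 CPM in the untreated libraries (-0.63 ± 0.09, adjusted p = 1.51e-07). Primitive endoderm markers summed to 35.9 and 32.3 CPM in the degron libraries and 56.3 and 49.8 CPM in the untreated libraries (3 of 5 tested lower and 0 higher). Trophoblast markers summed to 90.0 and 81.2 CPM in the degron libraries and 73.9 and 63.1 CPM in the untreated libraries (2 of 5 higher). Over all genes 19.8% were lower and 20.3% higher. With the length-adjusted scaling, 1 primitive endoderm marker was called lower and 1 trophoblast marker higher. The 6 early neural and mesoderm markers summed to 2.14 and 3.87 CPM in the degron libraries and 5.52 and 3.81 CPM in the untreated libraries. Pax6, the 1 gene of them that was tested and named here after its values were seen, fell by 1.00 ± 0.41 (adjusted p = 0.0448, and 0.0613 after length adjustment). Mesp1 and Sox1 were listed at 0, and the level of Sox1 could not be read because 100% of it lies under other genes of its strand. In bulk samples fewer cells of a type and less RNA per cell cannot be told apart, and the part of these markers in the changes of the pathway was not tested.

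Of 22 genes for adaptors and for the ERK and AKT branches that the LIF receptor also feeds, 6 rose and 9 fell (68.2% called, against 40.2% of all genes), and after length adjustment 6 were higher and 3 lower, against 2601 higher and 1436 lower of all 14361 genes. Akt2, the gene of an AKT kinase, was at 227 ± 14.5 CPM in the degron libraries and 174 ± 6.47 CPM in the untreated libraries (0.38 ± 0.06, edgeR adjusted p = 3.35e-06), and at 0.50 after length adjustment. Tbx3, a transcription factor gene placed downstream of the AKT branch in mESCs, rose by 0.55 ± 0.07 (adjusted p = 6.3e-08). Gab1, which encodes a docking adaptor (831 ± 18.2 CPM in the degron libraries and 1008 ± 15.1 CPM in the untreated libraries), fell by 0.28 ± 0.04, and was at -0.0035 after length adjustment. Map2k1, the gene of MEK1, whose product PD0325901 inhibits in all 4 libraries, fell by 0.32 ± 0.05 and was at -0.14 after length adjustment (adjusted p = 0.0369).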

How the data were processed

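The deposited values are raw counts per gene, which the authors made from ChAR-seq reads trimmed with cutadapt 2.6 and mapped to mm10 and dm6. The methods name bowtie2 and the submitters' processing notes list STAR 2.7.6a, so the mapper is not settled. They kept unique alignments, removed PCR duplicates and ran featureCounts 1.6.3 on each gene less its first 300 bp, introns included. Fly spike-in counts were not used here.

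Of 36918 identifiers, 36770 matched GENCODE M21. Genes were filtered with filterByExpr (minimum count 10, minimum total 15), scaled with TMM and compared with edgeR 4.0.16 (R 4.3.3), quasi-likelihood F test, two-sided, with group as the term. Benjamini-Hochberg adjustment covered all 14361 genes that passed, with a threshold of 0.05. Each SE was derived from the F statistic. Libraries of a group differed by more than counting noise, with chi-square over its degrees of freedom at 1.39 for degron and 1.30 for untreated. The steps were tested on simulated data.

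Alternatives were DESeq2 1.42.0 size factors and its Wald test, limma 3.58.1 voom, total counts, a filter at a mean of 50 counts or none, protein-coding genes, a replicate block, each library left out, and the length-adjusted scaling (for each library, an offset from a loess fit to log10 gene length with span 0.3), alone and with the block.

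The genes, the lists and the alternatives were chosen with earlier results of these data known. From each wider list, up to 5 genes with the smallest adjusted p are named, with Klf4, Klf5, Gbx2, Tfcp2l1 and Myc in addition. The ratios between genes and the other genes named outside this rule were chosen after the values were seen. A few genes that the rule names are not reported here.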

Additional observations from a re-analysis of the deposited data

How the results depend on the processing

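Of the 9 genes, Jak2 kept its direction and stayed uncalled under all 14 alternatives, and Lif, Il6st, Jak1, Stat3, Pim1 and Pim3 kept their direction under all of them. DESeq2's Wald test called 2818 genes over the whole table (1421 higher and 1397 lower), 21 in the wider lists and 2 of the 9, Jak1 and Pim1. It gave Lif 0.50 (adjusted p = 0.125), Lifr -0.22 (0.233), Il6st 0.21 (0.221) and Pim3 0.36 (0.102). With total counts Lifr was at -0.19 (0.0517) and Stat3 at 0.19, with no filter Lifr was at -0.18 (0.102) and Stat3 at 0.20. Length adjustment took Lifr to 0.043, Jak1 to -0.059, Stat3 to 0.30, Socs3 to -0.29, Pim1 to 0.14 and Pim3 to 0.13, and together with the replicate block Lifr was at 0.044, Jak1 at -0.058, Stat3 at 0.30, Socs3 at -0.29, Pim1 at 0.14 and Pim3 at 0.13. The cause of these shifts was not tested.

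The replicate numbers mark no shared culture or day in the labels, and deviations of same-numbered libraries had a correlation of 0.030 over genes. With the replicate block 6174 genes were called, 7 of the 9, with Stat3 at 0.16 and called (adjusted p = 0.0430).

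With 1 library left out, the calls among the 9 genes ranged from 3 to 5, those over all genes from 4387 to 4824 and those in the wider lists from 33 to 43. A group then has 1 library, which is assumed to vary like the other group. The 3 calls were without degron replicate 2. Log2 fold changes ranged from 0.41 to 0.61 for Lif, -0.25 to -0.17 for Lifr, 0.18 to 0.25 for Il6st, -0.39 to -0.27 for Jak1, -0.32 to -0.045 for Jak2, 0.14 to 0.20 for Stat3, -0.13 to 0.022 for Socs3, 0.32 to 0.43 for Pim1 and 0.15 to 0.57 for Pim3. In the wider lists, Klf5 ranged from -0.16 to 0.018 (without untreated replicate 1), with no call. Over 29 named genes and 399 refits, 363 kept their direction and side of the threshold, 29 lost a call, 6 gained one and 1 changed sign. Jak2, with 98 to 131 counts per library, had an SE of 0.15, against 0.07 for Jak1 with 600 to 871 counts.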
